A study of Mus musculus with 6 samples.

Results

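The 10 genes described here encode transcription regulators that direct CD4+ T cells into fates other than Th17: Tbx21, Eomes, Gata3, Bcl6, Foxp3, Stat4, Runx3, Prdm1, Id2 and Id3. They were taken by gene symbol from the 39179 genes listed in each count table, and all 10 were found. The study asked how insulin-like growth factor signalling alters the transcription of Th17 cells, the helper T cells that make IL-17. The 3 desIgf1 libraries came from cultures with 30 ng/mL desIgf1, a shortened form of IGF1 with low affinity for the IGF-binding proteins, and the 3 control libraries came from cultures without it. In both groups, naive CD4+ T cells came from C57BL/6 mice whose Foxp3, Il17a and Ifng loci report through GFP, human CD2 and Thy1.1, in that order. They were activated for 5 days by 5 µg/mL anti-CD3 in solution, with irradiated splenocytes from which CD4+ cells had been removed. The medium held 20 ng/mL IL-6 and 2.5 ng/mL TGF-β as Th17 cytokines, along with 10 µg/mL each of antibodies to IFN-γ and IL-4, and cells positive for the Il17a reporter and negative for the other 2 were sorted for RNA. The treatment text of the control samples also names desIgf1, so the groups follow the sample titles and descriptions. The sources used here give no age or sex of the mice and do not say whether the 3 libraries of a group came from separate animals or cultures, so each p-value reflects the spread among these libraries only, part of which may be technical.

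Helper T cell fates are set by transcription factors that restrain one another. T-bet (Tbx21), Eomes, STAT4 and RUNX3 promote the Th1 fate and its product interferon-γ, GATA3 directs the Th2 fate, Bcl-6 directs follicular helper cells, and Foxp3 defines regulatory T cells. Blimp-1 (Prdm1) opposes Bcl-6 and accompanies terminal effector states. Id2 and Id3 lack a DNA-binding region and hold E proteins off their target sites, with Id2 typical of effector cells and Id3 of naive, memory and follicular helper cells. In Th17 cultures, antibodies against IFN-γ and IL-4 are added to hold back the Th1 and Th2 routes.

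The regions around the start sites of 3 of these genes are shown because Id2 and Id3 are paralogs whose levels lay on opposite sides of control in every pair of libraries, and because Bcl6 had the densest run of STAT motifs of the 10 genes. They come from RefSeq (GRCm38.p6), run 5′ to 3′ on the gene's strand and span 250 bases before to 50 after the annotated start. In Id2 and Id3 the capitals mark the E-box CANNTG, which reads the same on both strands. In Bcl6 they mark the STAT motif TTCNNNGAA, which also reads the same on both strands.
Id2 (chr12:25096043-25096342, minus strand): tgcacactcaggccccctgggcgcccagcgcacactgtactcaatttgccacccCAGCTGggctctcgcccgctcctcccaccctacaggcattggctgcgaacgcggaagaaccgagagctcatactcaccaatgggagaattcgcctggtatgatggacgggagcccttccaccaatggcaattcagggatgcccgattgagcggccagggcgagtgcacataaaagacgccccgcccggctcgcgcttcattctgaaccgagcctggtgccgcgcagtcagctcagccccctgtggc
Id3 (chr4:136143572-136143871, plus strand): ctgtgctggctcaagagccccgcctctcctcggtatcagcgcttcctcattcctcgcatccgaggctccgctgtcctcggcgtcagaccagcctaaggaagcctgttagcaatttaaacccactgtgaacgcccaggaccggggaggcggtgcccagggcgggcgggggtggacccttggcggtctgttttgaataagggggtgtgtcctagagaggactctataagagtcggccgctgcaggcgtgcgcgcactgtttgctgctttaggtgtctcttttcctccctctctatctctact
Bcl6, downstream start (chr16:23981234-23981533, minus strand): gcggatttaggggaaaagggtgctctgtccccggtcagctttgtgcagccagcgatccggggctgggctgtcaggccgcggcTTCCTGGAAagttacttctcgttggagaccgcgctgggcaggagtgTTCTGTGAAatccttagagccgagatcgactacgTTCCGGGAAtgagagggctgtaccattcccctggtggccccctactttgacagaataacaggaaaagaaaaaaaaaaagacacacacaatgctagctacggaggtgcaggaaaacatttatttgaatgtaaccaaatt
Id2 held 1 E-box and Id3 held 0, in a window where 72.3% of all 32851 RefSeq promoters of this length held at least 1. The Bcl6 window held 3 STAT motifs, a number reached by 11 of the 32851 promoters (0.0335%), while 8.3% held at least 1. Over the 14 start sites annotated for the 10 genes, 11 held an E-box, 3 held a STAT motif (both Bcl6 starts and 1 Foxp3 start) and 1, that of Prdm1, held the FOXO motif GTAAACA on either strand, which 3.65% of all promoters held. Bcl6 was chosen for display after its motifs had been counted, and a match of letters is a description, not a bound site.

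Gene counts per library summed to 34567899 to 47929948, and 13846 genes passed the filter on low counts, all 10 regulators among them. The Th17 markers were present in every library, with Il17a at 66.0 to 159 CPM (counts scaled to the library size with TMM factors) and the 6 markers of the list summed to 1856 to 2227 CPM in desIgf1 libraries and 1365 to 1523 CPM in control libraries. Ifng stayed at 0.0237 to 0.614 CPM. Of the markers of other cells, those of B cells (6 genes) summed to 1.30 to 3.91 CPM with desIgf1 and 1.95 to 6.16 CPM in control, and those of dendritic cells (6 genes, Xcr1 and Siglech at 0) to 1.02 to 3.31 CPM and 0.745 to 2.29 CPM. Macrophage or monocyte markers (6 genes, Fcgr1 at 0) summed to 9.61 to 14.5 CPM with desIgf1 and 4.18 to 12.1 CPM in control, NK cell markers (4 genes, Ncr1 and Klra8 at 0) to 2.75 to 4.57 and 2.23 to 2.63 CPM, CD8 T cell markers (2 genes) to 4.98 to 11.0 and 3.22 to 7.85 CPM, plasma cell markers (3 genes) to 1.14 to 2.35 and 1.23 to 2.58 CPM, and neutrophil markers (3 genes) to at most 0.142 CPM with desIgf1 and 0.573 CPM in control. The sums of the Th17 and NK cell lists did not overlap between the groups, and their part in the values of the regulators was not tested. The 6 pan-T markers summed to 5071 to 5755 CPM with desIgf1 and 5069 to 5196 CPM in control. The libraries numbered 3 stood apart from the other 4 along the first principal component (43.5% of the variance), and the counts of called regulators and companion genes are given with and without them. Along the second component (27.0% of the variance) the groups did not overlap, with desIgf1 at 13.1 to 39.8 and control at -35.0 to -12.3. Both number 1 libraries held Xist (2219 CPM with desIgf1, 1705 CPM in control), which the other 4 held at 0.404 to 0.682 CPM, and Ddx3y, a Y-linked gene, stood at 0.0501 and 0.0658 CPM in number 1, against 97.1 to 128 CPM in the other 4. The number 1 libraries thus held female RNA and the other 4 male RNA, so number 1 came from other mice than numbers 2 and 3, in both groups alike.

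The 10 genes fell into 2 tiers. Per kilobase of exon, Id2 was highest at 117 ± 22.6 CPM per kb (SD over 6 libraries), then Stat4 at 46.2 ± 9.53, Runx3 at 28.4 ± 5.63, Id3 at 16.6 ± 6.20, Bcl6 at 15.2 ± 4.08 and Gata3 at 10.0 ± 3.10 CPM per kb. The other 4 lay far below, with Prdm1 at 0.480 ± 0.230, Tbx21 at 0.406 ± 0.242, Eomes at 0.376 ± 0.357 and Foxp3 at 0.175 ± 0.162 CPM per kb. The ranges of Id2 and Stat4 did not overlap, nor did those of Gata3 and Prdm1. Stat4 was above Runx3, Runx3 above Id3 and Bcl6 above Gata3 in 6 of 6 libraries, with ranges that overlapped. Id3 and Bcl6 did not differ beyond their spread, since Id3 was the higher in 2 of 6 libraries, and with the longest transcript as the length their order turned (25.9 CPM per kb for Bcl6, 23.2 for Id3). Among the low tier, the ranges of neighbours overlapped throughout. Mean CPM placed Id2 above 95.1% and Stat4 above 90.5% of the tested genes, and Foxp3 above 13.1% and Tbx21 above 15.4%. In bulk RNA, fewer cells that express a gene and less RNA of that gene per cell cannot be told apart.

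**Figure D1:**
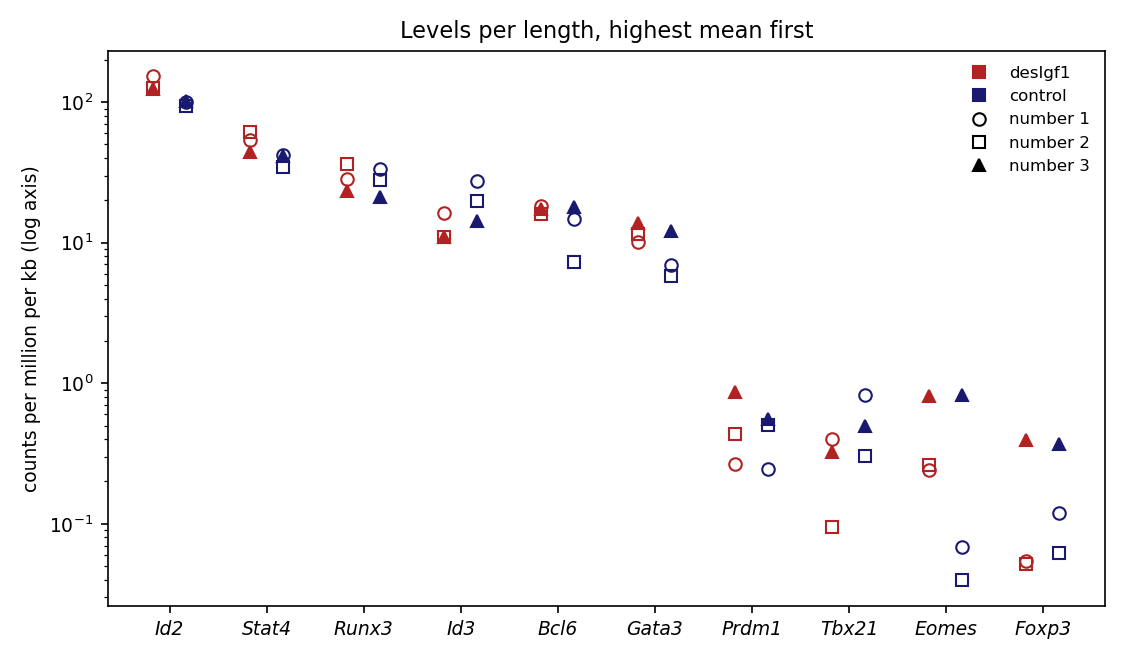
CPM per kilobase of exon (log axis) of the 10 genes in each library, highest mean first, with desIgf1 (red) left of control (dark) and marker shape for the library number. Id2 to Gata3 lie above 5 in all 6 libraries, and Prdm1, Tbx21, Eomes and Foxp3 below 1.

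For the difference between desIgf1 and control, edgeR's quasi-likelihood test called 0 of the 10 regulators at an adjusted p of 0.05 (10 not called, adjusted p = 0.394 to 0.982), and 0 of 13846 genes (0%). At an unadjusted p under 0.05 it held 2 regulators higher (Id2 and Stat4) and 1 lower (Id3), against 4.75% and 3.42% of all genes. limma voom called 0 regulators and 0 genes. DESeq2 called 1 of the 10, Id2, where it called 1.49% of all genes. With the library number as a block, edgeR called 0 of the 10 (lowest adjusted p = 0.137), with 0.318% of all genes called. Without the block, the median log2 fold change of the 10 was 0.32, against -0.01 over all tested genes, with 7 above 0 and 3 below. The values given gene by gene below come from the fit without the block unless stated.

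The pair of E protein inhibitors lay on opposite sides of control. Id2 (on chromosome 12 from 25093799 to 25097140) was at 374, 310 and 304 CPM in desIgf1 libraries 1 to 3, against 246, 228 and 248 CPM in control libraries 1 to 3. All 3 desIgf1 libraries were above all 3 controls. Its mean was 329 ± 38.9 CPM with desIgf1 and 240 ± 11.1 CPM in control (SD, n = 3 each), a log2 fold change of 0.45 ± 0.11 SE, which did not pass edgeR (adjusted p = 0.394) and passed DESeq2 (adjusted p = 0.0346). Id3 (on chromosome 4 from 136143497 to 136145755) was at 29.0, 19.7 and 19.7 CPM with desIgf1, against 48.9, 35.2 and 25.4 CPM in control. It was lower with desIgf1 within each library number, and the groups overlapped because desIgf1 library 1 lay above control library 3. Its means were 22.8 ± 5.33 CPM and 36.5 ± 11.8 CPM, and its log2 fold change was -0.68 ± 0.26 (edgeR adjusted p = 0.572).

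The Id2 to Id3 ratio set these values against each other within each library. As a log2 ratio of CPM it was 3.69, 3.97 and 3.94 with desIgf1, against 2.33, 2.69 and 3.28 in control. The groups did not overlap, and the means differed by 1.10 on the log2 scale, from 0.66 in number 3 to 1.36 in number 1. This is a description of 2 genes already given and carries no test.

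Of the genes of the Th1 route, Stat4 and Tbx21 lay on opposite sides of control. Stat4 (on chromosome 1 from 51987148 to 52107189), which carries the IL-12 signal to the nucleus, was at 208, 236 and 170 CPM with desIgf1, against 163, 134 and 160 CPM in control. The groups did not overlap, and at their closest were desIgf1 library 3 at 170 CPM and control library 1 at 163 CPM. The log2 fold change was 0.43 ± 0.14 SE (edgeR adjusted p = 0.526). Tbx21 (on chromosome 11 from 97098071 to 97115331), the gene of T-bet, had 40, 10 and 39 counts with desIgf1, against 93, 32 and 43 counts in control. In CPM these were 1.0, 0.237 and 0.806 with desIgf1 and 2.04, 0.751 and 1.23 in control. Tbx21 was lower with desIgf1 in each library number, yet the groups overlapped and the log2 fold change was -0.97 ± 0.58 (edgeR adjusted p = 0.659).

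Runx3, which cooperates with T-bet at Ifng, showed no common direction. It was at 141, 180 and 117 CPM with desIgf1, against 167, 140 and 106 CPM in control, lower in number 1 and higher in the other two (log2 0.08 ± 0.21, edgeR adjusted p = 0.919). Eomes, a T-box relative of T-bet linked to cytotoxic and memory T cells, had 40, 46 and 164 counts with desIgf1, against 13, 7 and 120 counts in control. Its CPM were 1.0, 1.09 and 3.39 with desIgf1 and 0.285, 0.164 and 3.44 in control. Both number 3 libraries were high and alike, whereas in numbers 1 and 2 the desIgf1 library was above its control by 1.66 and 2.43 on the log2 scale. The fit without pairs gave 0.52 ± 1.08 (edgeR adjusted p = 0.907).

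Gata3, the Th2 regulator, was higher with desIgf1 in all 3 library numbers. It (on chromosome 2 from 9857078 to 9890034) was at 40.1, 45.5 and 54.8 CPM with desIgf1, against 27.6, 23.0 and 48.3 CPM in control. Control library 3 lay above desIgf1 libraries 1 and 2, so the groups overlapped, and the log2 fold change was 0.51 ± 0.28 SE (edgeR adjusted p = 0.639). The Tbx21 to Gata3 log2 ratio was -5.26, -7.32 and -6.01 with desIgf1, against -3.73, -4.85 and -5.24 in control, so the groups did not overlap, although desIgf1 library 1 and control library 3 all but met. This ratio rests on 10 to 93 Tbx21 counts per library, describes 2 genes already given and carries no test.

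**Figure D2:**
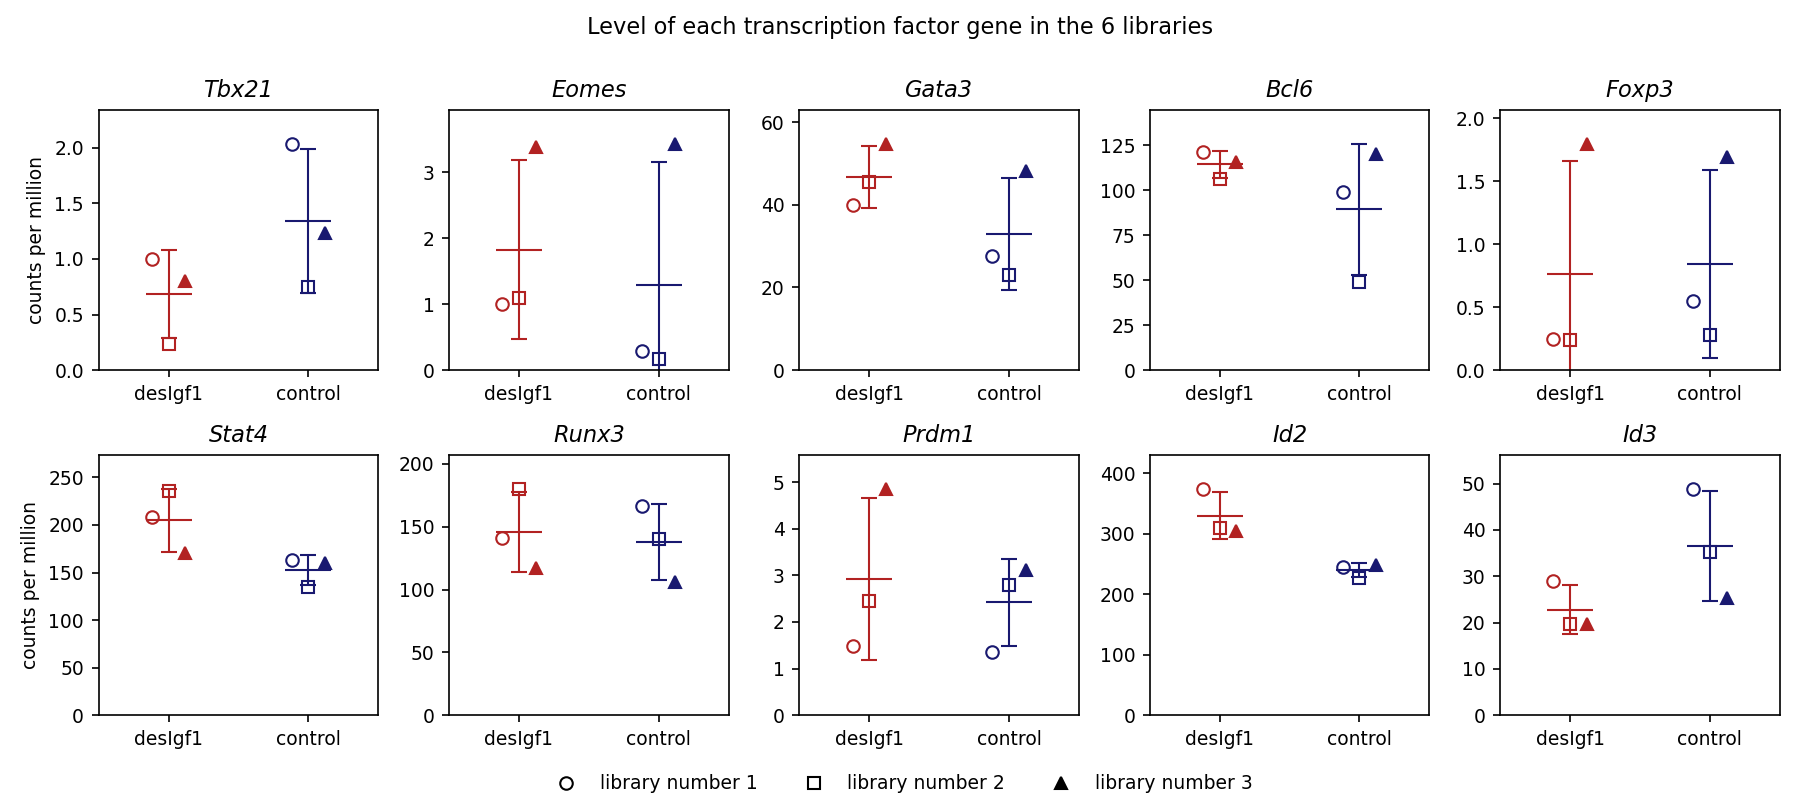
CPM of the 10 genes in each library, desIgf1 left of control, with marker shape for the library number, a dash for the group mean and bars for the SD (n = 3; bars that pass below 0 are cut by the axis). Id2 and Stat4 are the 2 genes whose groups do not overlap, and the filled number 3 triangles are the highest points for Eomes, Foxp3 and, in their group, Gata3 and Prdm1.

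Bcl6 and Prdm1, which repress each other, did not separate the groups. Bcl6 (on chromosome 16 from 23965052 to 23988852) was at 121, 106 and 116 CPM with desIgf1, against 99.2, 49.0 and 120 CPM in control. Control library 2 alone was low, and the log2 fold change was 0.36 ± 0.29 SE (edgeR adjusted p = 0.725). Prdm1, the gene of Blimp-1, had 59, 103 and 235 counts with desIgf1, against 62, 119 and 109 counts in control, or 1.48, 2.45 and 4.86 CPM and 1.36, 2.79 and 3.12 CPM (log2 0.28 ± 0.50, edgeR adjusted p = 0.888). The log2 ratio of Bcl6 to Prdm1 was 6.32, 5.42 and 4.56 with desIgf1 and 6.14, 4.11 and 5.25 in control, with overlap. The Runx3 to Gata3 log2 ratio overlapped as well, at 1.09 to 1.98 with desIgf1 and 1.14 to 2.61 in control.

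Foxp3 had the lowest mean per kilobase of the 10 over the 6 libraries, in cells sorted for absence of its reporter. Its range overlapped that of Eomes, which was the higher in 4 of 6 libraries. Foxp3 had 10, 10 and 87 counts with desIgf1, against 25, 12 and 59 counts in control, or 0.250, 0.237 and 1.80 CPM and 0.548, 0.281 and 1.69 CPM. The number 3 libraries alone were above 1 CPM, in both groups, and the log2 fold change was -0.11 ± 0.94 SE (edgeR adjusted p = 0.982). The noncoding gene Flicr overlaps Foxp3 on the same strand and had 37 to 68 counts, and Ppp1r3f and Ccdc22 overlap it on the opposite strand. The sources used here do not give the settings of the counting, so how reads that overlap more than 1 of these genes were counted is not known.

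Within library numbers, 3 of the 10 genes were higher with desIgf1 in all 3 pairs (Gata3, Stat4 and Id2) and 2 were lower in all 3 (Tbx21 and Id3), against 20.9% and 17.2% of all tested genes. The other 5 were mixed. Of the 10, 2 had groups without overlap, both with desIgf1 higher, where 7.31% of all genes did so. Without the number 3 libraries, the blocked edgeR test called 6 of the 10, 5 higher and 1 lower, with 7.64% of all genes called (4.68% higher, 2.97% lower): Eomes (log2 2.21, adjusted p = 0.0167), Gata3 (0.76, 0.0159), Bcl6 (0.71, 0.0437), Stat4 (0.58, 0.0363) and Id2 (0.53, 0.0330) were higher with desIgf1 and Id3 (-0.79, 0.00737) lower. That fit compares 2 pairs and has 1 residual degree of freedom, so its calls lean on the spread shared over all genes. Without the number 2 libraries the same test called 2 of the 10, Id2 (log2 0.45, adjusted p = 0.0141) and Id3 (-0.56, adjusted p = 0.0255), with 4.42% of genes called, and without the number 1 libraries it called 0, with 0.513% of genes called. Id2 and Id3 were the 2 regulators called both without number 2 and without number 3.

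**Figure D3:**
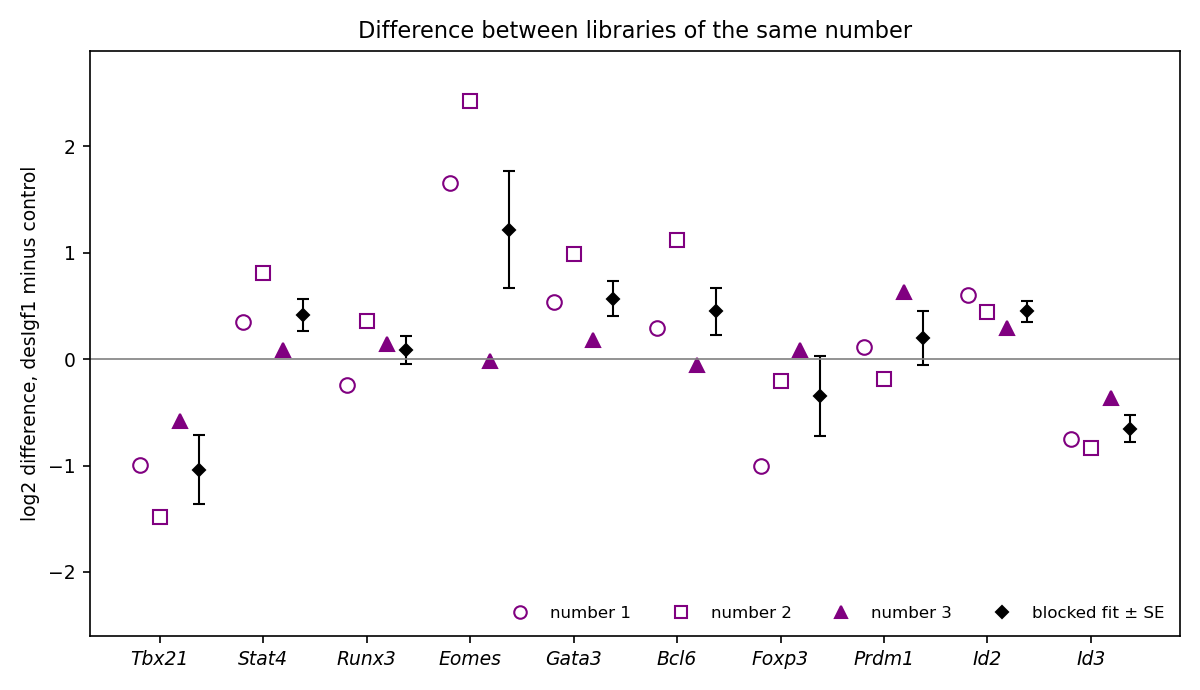
Log2 difference between the desIgf1 and the control library of the same number for each gene (purple, one marker shape per number), with the estimate of the blocked edgeR fit and its SE in black. Gata3, Stat4 and Id2 lie above 0 and Tbx21 and Id3 below 0 in all 3 numbers, and for Eomes and Bcl6 the number 3 marker lies near 0 (-0.02 and -0.05) while the others lie above it.

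Several of these genes varied with the library number in both groups. Both number 3 libraries lay above the other 4 for Eomes, Foxp3, Prdm1 and Gata3 (4 of 10, against 15% of all tested genes) and below them for Runx3 (1 of 10, against 12.5%). Eomes averaged 3.41 CPM in number 3, against 0.643 and 0.628 CPM in numbers 1 and 2, and Foxp3 averaged 1.74 CPM, against 0.399 and 0.259 CPM. In the edgeR test of the library number, 7 of the 10 had an unadjusted p under 0.05, where 16.4% of all genes did, and 0 passed after adjustment over all genes (adjusted p = 0.0747 for Foxp3, 0.126 for Eomes and 0.140 for Id3), where 1.37% of all genes passed. Without the filter on low counts Foxp3 passed (adjusted p = 0.0147), with 3.08% of genes called. B cell markers were also highest in number 3, at 3.91 CPM with desIgf1 and 6.16 CPM in control, with Ebf1 at 2.40 and 2.84 CPM of these sums, against 1.30 to 2.02 CPM in the other 4 libraries, and dendritic cell markers stood at 3.31 CPM with desIgf1 and 2.29 CPM in control, against 0.745 to 2.05 CPM. Macrophage or monocyte markers were lowest there, at 9.61 CPM with desIgf1 and 4.18 CPM in control, against 11.8 to 14.5 CPM. Regulatory T cell genes went both ways in number 3, and those named here were chosen after their values were seen. Nrp1 stood at 52.7 CPM with desIgf1 and 111 CPM in control, against 6.29 to 11.3 CPM elsewhere. Ikzf2 and Itgae were also highest in number 3. Il2ra stood lowest there, at 607 and 369 CPM against 754 to 1574 CPM, as did Socs2 and Cish. The part of these markers and genes in the number 3 values of Eomes and Foxp3 was not tested.

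**Figure D4:**
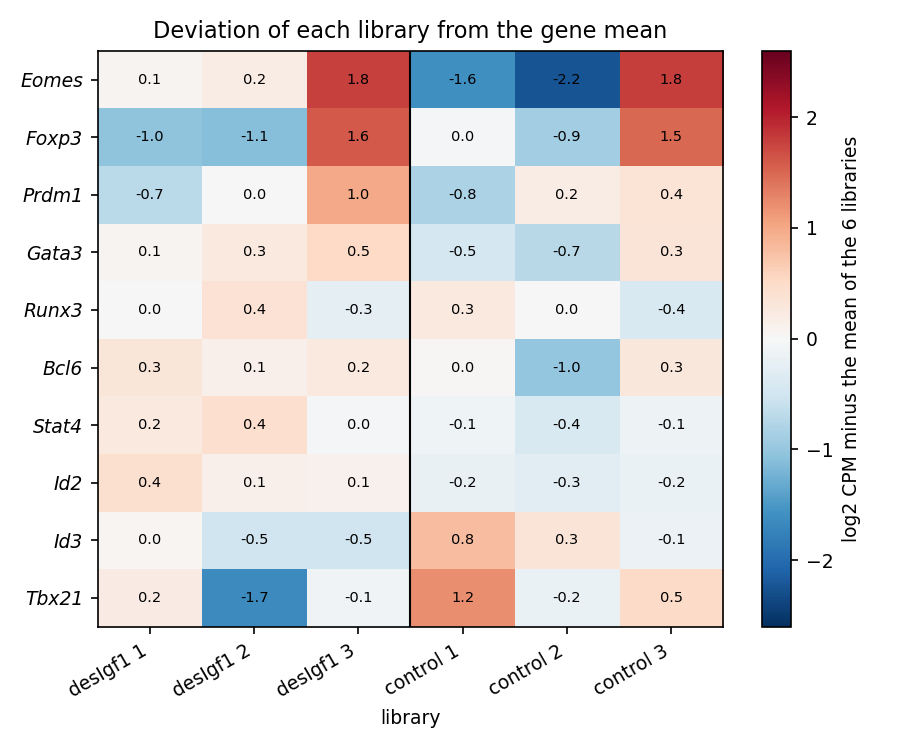
Log2 CPM of each gene in each library minus the mean of its 6 libraries, desIgf1 libraries left of control libraries. The columns desIgf1 3 and control 3 are both high for Eomes (1.8 and 1.8) and Foxp3 (1.6 and 1.5), while Id2 is above 0 in the 3 desIgf1 columns and below 0 in the 3 control columns.

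The profiles most like those of the regulators were sought among 109 companion genes at 1 CPM or more, as the root mean square difference of centred log2 CPM over the 6 libraries, for the 9 regulators with a mean of at least 1 CPM (Foxp3 was below it). The nearest to Stat4 and also to Id2 was Jak2, a kinase of cytokine receptors, at 0.10 and 0.14. For comparison, Stat4 and Id2 themselves deviated from their own means by 0.27 and 0.25. This deviation was 0.26 for Runx3, 0.45 for Gata3, 0.46 for Bcl6 and for Id3, 0.62 for Prdm1, 0.87 for Tbx21 and 1.53 for Eomes. The nearest profiles of Runx3 and Tbx21 thus lay at a large part of the regulator's own deviation. The second nearest were Tox2 for Stat4 (0.12) and Dusp6, a phosphatase of the ERK kinases, for Id2 (0.16). Gata3 was nearest to Cd44, an activation and memory marker (0.16), and to Il18r1 (0.16), and Id3 to Gpr83 (0.15) and the E protein gene Tcf4 (0.25). Eomes was nearest to the chemokine receptor genes Cxcr6 (0.57) and Ccr8 (0.58). Ccr8 was likewise high in number 3, at 59.4 CPM with desIgf1 and 55.7 CPM in control, against 2.43 to 13.4 CPM elsewhere. Cxcr6 was highest in number 3 within each group, and also higher with desIgf1 in each pair. It was at 43.8, 81.7 and 140 CPM with desIgf1, against 7.65, 7.11 and 76.9 CPM in control (blocked edgeR adjusted p = 0.153, and 0.000155 without number 3). Prdm1 was nearest to Ebi3 (0.27) and Sh2d1a (0.27), Runx3 to Zeb1 (0.16) and Il7r (0.18), Bcl6 to Ccl5 (0.17) and Ctsw (0.21), and Tbx21 to Il10 (0.54) and Areg (0.56).

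Genes that these regulators control or work with were read from 9 lists of 132 distinct companion genes, of which 118 were tested. A list can mix genes that its regulator promotes and represses, such as Il10 and Bcl6 on the Blimp-1 list. Its counts and median therefore describe the listed genes and do not measure the activity of the regulator. In edgeR 0 of the 118 passed without the block (9 higher and 10 lower at an unadjusted p under 0.05, where 4.75% and 3.42% of all genes were, and 10 called by DESeq2, where 1.49% of all genes were), and with it 2 rose (Gpr183 and P2rx7) and 2 fell (Klf2 among them), with 114 not called, where 0.181% of all genes were called higher and 0.137% lower. Without the number 3 libraries the blocked test called 14 of the companion genes higher and 13 lower, where 4.68% and 2.97% of all genes were called. It called 12 higher and 10 lower without number 2, where 4.42% of all genes were called. Without number 1 it called 2 higher and 3 lower, where 0.513% were called. Leaving out number 3 thus gave the most calls, and each p-value given without number 3 comes from 2 pairs of libraries. Of the Tfh list (21 tested), 2 rose and 0 fell with the block (3 and 4 without number 3), with a median log2 fold change of 0.01. Gpr183, a migration receptor that Bcl-6 represses in follicular helper cells, was at 80.8, 118 and 62.1 CPM with desIgf1, against 38.9, 40.3 and 29.3 CPM in control, and rose by 1.23 ± 0.13 on the log2 scale (blocked edgeR adjusted p = 0.0440). P2rx7, an ATP-gated channel, was at 191, 212 and 140 CPM, against 107, 102 and 84.0 CPM in control, and rose by 0.88 ± 0.10 (blocked edgeR adjusted p = 0.0467). Neither gene's groups overlapped.

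Of the memory and naive list (20 tested), 0 rose and 2 fell with the block (1 and 4 without number 3), with a median of 0.03. Klf2, which keeps naive T cells recirculating, was at 45.3, 33.9 and 23.1 CPM with desIgf1, against 129, 76.8 and 62.8 CPM in control (blocked edgeR log2 -1.38 ± 0.11, adjusted p = 0.0245). Tcf7, a regulator of memory and follicular helper cells, was at 1602 to 2008 CPM with desIgf1 and 1571 to 2292 CPM in control, and it was chosen after its values were seen. Slamf6, a SLAM family receptor on this list and the Tfh list, was at 159, 137 and 178 CPM, against 384, 392 and 314 CPM in control, and Il6ra, the IL-6 receptor gene of the Tfh list, at 107, 126 and 119 CPM, against 199, 196 and 185 CPM, and with the block edgeR gave adjusted p-values of 0.0512 for Slamf6 and 0.0577 for Il6ra. Both were called without number 3 (adjusted p = 0.000582 and 0.00700) and by DESeq2 (adjusted p = 4.83e-11 and 2.46e-07).

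For the lists that follow, counts and medians come from the blocked edgeR fit, in which 9.02% of all genes were higher and 5.29% lower at an unadjusted p under 0.05, and the genes named are those of smallest p without the block. The Th1 list had 25 tested genes, of which 0 were called with the block (6 higher and 1 lower at an unadjusted p under 0.05; median log2 fold change 0.09), and without number 3 the test called 5 higher and 1 lower. Il18rap, a subunit of the IL-18 receptor, was at 78.2, 88.7 and 95.1 CPM with desIgf1, against 36.1, 26.6 and 49.4 CPM in control, without overlap (blocked edgeR adjusted p = 0.0577, 0.00133 without number 3, and DESeq2 adjusted p = 5.27e-05). Tnf, a cytokine gene with a smaller blocked p and chosen after its values were seen, was at 84.9, 28.9 and 25.5 CPM with desIgf1, against 49.4, 16.4 and 15.2 CPM in control (blocked edgeR adjusted p = 0.0512, and 0.00567 without number 3). Fasl was at 3.61 to 5.68 CPM with desIgf1 and 1.22 to 4.27 CPM in control (blocked edgeR adjusted p = 0.201, and 0.00534 without number 3), and Furin at 655 to 955 and 518 to 745 CPM. The 1 lower gene was Hlx, at 0.375, 0.214 and 0.641 CPM with desIgf1, against 0.680, 0.751 and 1.29 CPM in control (blocked edgeR adjusted p = 0.239). The IL-12 receptor genes overlapped, with Il12rb1 at 80.5 to 120 and 57.7 to 146 CPM and Il12rb2 at 21.1 to 52.1 and 13.0 to 65.4 CPM. Hlx and these receptor genes were chosen after their values were seen. Of the Th2 list, 15 genes were tested and 0 called (5 higher and 1 lower at an unadjusted p under 0.05, median 0.14; 1 higher and 0 lower called without number 3), with Il5, Il9, Il24, Il1rl1, Ptgdr2 and Bhlhe41 below the filter. Among its genes at 1 CPM or more, the smallest p-values without the block were those of Dusp6, at 53.7 to 56.7 CPM with desIgf1 and 42.5 to 51.0 CPM in control, of Stat6 (375 to 422 and 358 to 380 CPM) and of Junb (574 to 733 and 513 to 633 CPM). Below 1 CPM and without overlap, Ccr3 was higher with desIgf1 (0.786 to 0.855 and 0.241 to 0.352 CPM, blocked edgeR adjusted p = 0.167). Il4, the 1 lower gene, was at 0.0950 to 0.300 and 0.352 to 0.570 CPM, also without overlap (blocked edgeR adjusted p = 0.344). Il13 stood at 7.75 and 3.55 CPM in number 3, against 0.0877 to 0.237 CPM elsewhere. These last genes were chosen after their values were seen.

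Of 24 Treg genes, all tested, 0 were called (5 higher and 8 lower at an unadjusted p under 0.05, median -0.04), and without number 3 the test called 3 higher and 4 lower. Lrrc32, which displays latent TGF-β on regulatory T cells, was at 5.13, 6.70 and 7.86 CPM with desIgf1, against 40.1, 59.7 and 19.1 CPM in control, without overlap (blocked edgeR adjusted p = 0.0807, 1.16e-05 without number 3, and DESeq2 adjusted p = 4.7e-09). Nt5e, which encodes CD73 and was chosen after its values were seen, had a smaller blocked p, at 210, 192 and 378 CPM with desIgf1, against 384, 288 and 796 CPM in control (blocked edgeR adjusted p = 0.0633, and 0.0107 without number 3). Il10, which Blimp-1 promotes, was at 0.601, 0.522 and 1.05 CPM, against 2.41, 1.36 and 1.72 CPM, also without overlap (blocked edgeR adjusted p = 0.185, and 0.0185 without number 3). Socs2 was at 45.3 to 81.5 CPM with desIgf1 and 50.4 to 196 CPM in control (blocked edgeR adjusted p = 0.307, and 0.0125 without number 3). Among 16 genes linked to Blimp-1, Bcl6 among them, 0 were called (1 higher and 4 lower at an unadjusted p under 0.05, median -0.12; 1 higher and 2 lower called without number 3), with Maf at 445 to 540 CPM with desIgf1 and 386 to 423 CPM in control and Tigit at 3.73 to 5.04 and 4.32 to 9.74 CPM.

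Of the partners of the Id, RUNX and STAT proteins, 0 passed the blocked test, and Jak2 passed DESeq2. Of the E proteins and Id family, 4 genes were tested and 0 called (0 higher and 1 lower at an unadjusted p under 0.05, median -0.10; 0 called without number 3), and Tcf3, which encodes the E2A proteins that Id2 and Id3 bind, was at 240, 222 and 261 CPM with desIgf1, against 274, 292 and 283 CPM in control (blocked edgeR adjusted p = 0.350). The other E protein genes were Tcf4, at 16.6 to 26.2 CPM with desIgf1 and 22.2 to 32.3 CPM in control, and Tcf12, at 157 to 159 and 152 to 160 CPM. Of 8 genes tested for the RUNX and ThPOK axis, 0 were called (1 higher and 0 lower at an unadjusted p under 0.05, median 0.19; 1 higher called without number 3), with Patz1 at 68.3 to 73.6 CPM with desIgf1 and 73.7 to 85.1 CPM in control, Runx2 at 50.9 to 69.8 and 43.0 to 61.8 CPM, and Cd8b1 at 4.98 to 10.9 and 3.22 to 7.82 CPM. Of 10 STAT and IL-12 receptor genes, 0 were called (2 higher and 0 lower at an unadjusted p under 0.05, median 0.06; 1 higher called without number 3), and Jak2 was at 971, 1054 and 802 CPM with desIgf1, against 628, 610 and 678 CPM in control, without overlap (blocked edgeR adjusted p = 0.166, 0.0151 without number 3, and DESeq2 adjusted p = 0.0101). Stat5a was at 235 to 282 CPM with desIgf1 and 190 to 254 CPM in control, and Stat2 at 81.7 to 115 and 65.0 to 95.4 CPM.

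**Figure D5:**
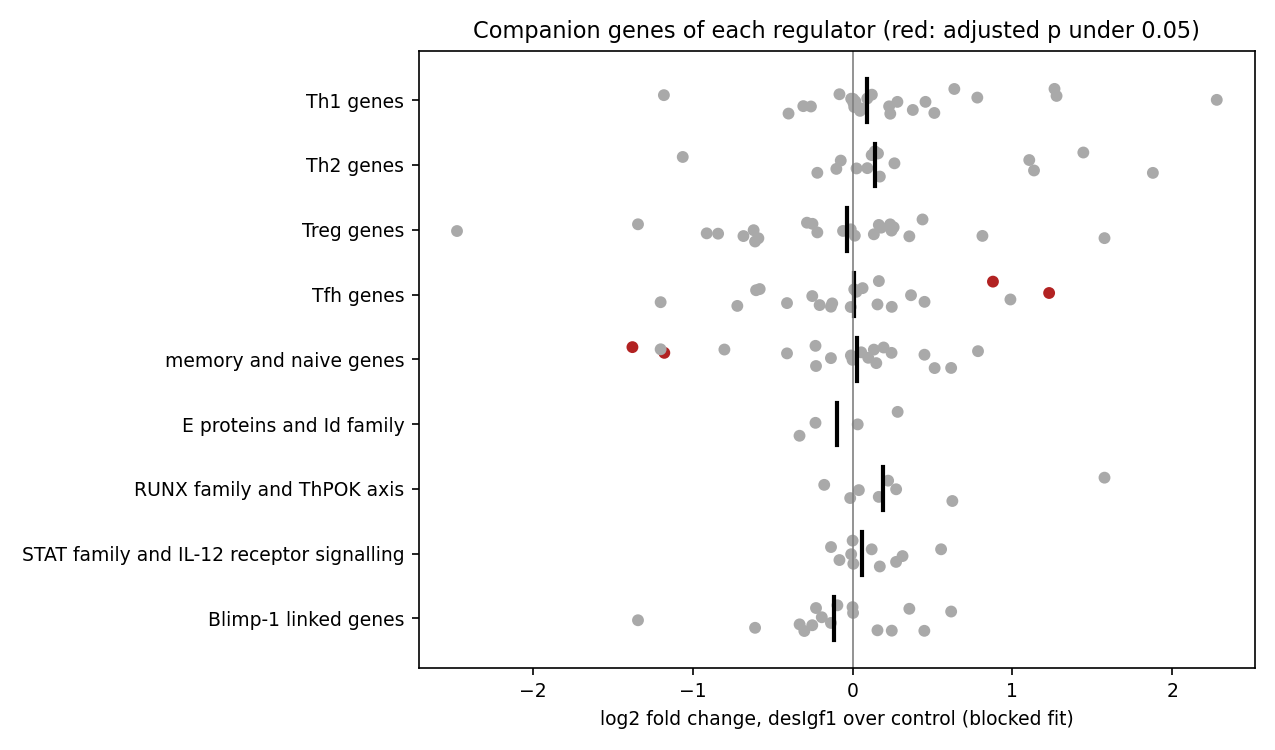
Log2 fold change, desIgf1 over control, of the tested genes of the 9 companion lists in the blocked edgeR fit, 1 point per gene (a gene on several lists is drawn in each) and a black bar at each list's median. The 4 red points, 2 above 0 (Gpr183 and P2rx7) and 2 below 0 (Klf2 among them), are the genes past an adjusted p of 0.05, and the list medians lie between -0.12 and 0.19.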

How the data were processed

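Messenger RNA of 6 libraries, 3 per group, was measured by sequencing with a stranded kit, per the labels' protocols. The deposited values are whole-number read counts per Ensembl gene, not normalized. Per the submitters' processing notes, HTSeq 0.7.2, STAR 2.5.3 and Trim Galore 0.4.5, besides R 3.4.3 with DESeq2 1.18.1 and SAMtools 0.1.18, were used with GRCm38 (mm10), without roles or settings. The sources used here do not name the annotation release. The 5 summary lines of each table stayed out (13.5 to 15.7% of unique reads in no gene, 0.712 to 0.761% ambiguous). The line for alignments that were not unique held 46.4 to 48.7% of all entries of a table. Symbols, lengths and coordinates came from GENCODE M21 (37607 of 39179 identifiers matched).

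From the counts, edgeR 4.0.16 in R 4.3.3 was run over all genes (filterByExpr, minimum count 10; TMM; robust quasi-likelihood test; group only), with Benjamini-Hochberg adjustment and a threshold of 0.05. A standard error is the log2 fold change over the square root of F. Values are CPM; log2 CPM, its pair differences and ratios use a prior count of 2. The alternatives were DESeq2 1.42.0, limma voom 3.58.1, other size factors, no filter, the library number as a block, and libraries left out. Same-numbered libraries deviated together from their group means (correlations 0.59, 0.32 and 0.55 across genes), so the blocked fit treated the numbers as pairs, on the data and not on a label. Libraries of a group were not copies (chi-square per degree of freedom 40.5 to 130.3). The edgeR script was tested on simulated data.

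The regulators and companion lists were chosen with earlier results of these data known. Named companions are the 3 of smallest p per list without the block at a mean of 1 CPM or more and those called with the block; the 2 nearest profiles of each regulator at 1 CPM or more (all but Foxp3) come from the same lists. The values of 1 companion gene are not reported here.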

Additional observations from a re-analysis of the deposited data

How the results depend on the processing

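The count of genes called in edgeR (0 of 13846) became 16 without the filter on low counts, 202 with DESeq2, 44 with the replicate block, and 72, 620 and 1069 when the block was combined with leaving out number 1, 2 or 3. It stayed at 0 with limma voom, with DESeq2's size factors and with any 1 library left out. The replicate block changed the call of 0 regulators. For the regulators the count (0 of 10) became 1 with DESeq2, and 2 and 6 with the block without numbers 2 and 3, and for companion genes (0 of 118) it became 2 without the filter, 10 with DESeq2, 4 with the block and 5, 22 and 27 with the block without numbers 1, 2 and 3. Where a number was left out, the blocked fit had fewer residual degrees of freedom. Genes that differed between library numbers numbered 190, and 692 without the filter, over 22504 genes.

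Tbx21, Gata3, Bcl6, Stat4, Id2 and Id3 kept their direction in all 14 alternatives. With 1 library left out, log2 fold changes ran from -1.35 to -0.53 for Tbx21, 0.30 to 0.89 for Gata3, 0.06 to 0.63 for Bcl6, 0.31 to 0.52 for Stat4, 0.35 to 0.49 for Id2, -0.89 to -0.41 for Id3, -0.31 to 3.01 for Eomes, -1.78 to 0.89 for Foxp3, -0.10 to 0.25 for Runx3 and -0.33 to 0.59 for Prdm1, and no adjusted p was under 0.107. The sign of Eomes turned without desIgf1 library 3 (-0.31) or control library 2 (-0.01), that of Foxp3 without desIgf1 library 1 (0.30) or 2 (0.32) or control library 3 (0.89), that of Runx3 without desIgf1 library 2 (-0.10) or control library 3 (-0.07) and with the block without number 2 (-0.0516), and that of Prdm1 without desIgf1 library 3 (-0.33) or control library 1 (-0.01) and with the block without number 3 (-0.0448). The cause was not tested. By the longest transcript, levels were 145 for Id2, 59.9 for Stat4, 36.5 for Runx3, 25.9 for Bcl6 and 23.2 CPM per kb for Id3. Differences in log2 ratio with 1 library left out ran from 0.88 to 1.36 for Id2 over Id3, -2.06 to -1.03 for Tbx21 over Gata3, -0.26 to 0.75 for Bcl6 over Prdm1 and -0.97 to -0.21 for Runx3 over Gata3. Tbx21, Eomes, Foxp3 and Prdm1 had 7 to 235 counts per library, which limits the precision of their values.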
